A study of Mus musculus with 54 samples.

Results

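Cytosolic ribosomal protein genes were examined across mouse embryonic stem (ES) cells leaving the pluripotent state. The members were the entries whose symbol begins with Rpl, Rps or Rplp and a number, plus Rpsa, without pseudogene names and without the Rps6k kinases. That rule found 86 members in each of the 2 deposited expression tables, of 38363 entries in the retinoic acid (RA) table and 39067 in the leukaemia inhibitory factor (LIF) and lineage table. They comprise 31 proteins of the small subunit, 43 of the large subunit, 3 of the acidic stalk, 8 like-named second copies and Rps19bp1, a binding partner of Rps19 that is not a subunit. Of the 54 samples of the series, 20 stand behind these tables.

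The RA table holds 46C ES cells, a 129/Ola line in which GFP marks Sox1 expression, after withdrawal of LIF and addition of 2 µM RA. Its 4 groups are Haunt 58 kb KO cells at day 4, wild-type (WT) cells at day 4, Haunt 58 kb KO cells at day 2 and WT cells at day 2, each with 2 libraries. The KO cells carry a 58 kb deletion at Haunt, a long non-coding RNA gene near the HOXA cluster, and their libraries are labelled i and j. The labels do not state whether libraries within a group are separate cultures, so p-values measure only the spread between these libraries, which may be technical. The LIF table holds cells without RA at days 0, 2, 4 and 6 of LIF withdrawal, and 3 sorted lineages. Day 0 is the authors' mean of 3 libraries (CJ7 and JF4 cells), day 2 of 2 (J1 and CJ7), and day 6 of 3 (JF4, J1 and CJ7), while day 4 is 1 CJ7 library, so the mixture of lines and the day cannot be told apart. CJ7 and JF4 are 129S1/SVImJ lines and J1 is 129S4/SvJae. The lineages are single libraries of 129/Ola background: mesendoderm (ME), sorted as GFP+ from T-GFP ES cells after 6 days without LIF, neural progenitor cells (NPC), sorted as GFP+ from 46C cells after 6 days in N2B27 medium, and neural stem cells (NSC), sorted from 46C cultures and expanded with EGF and FGF-2 to passage 15.

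A ribosome joins a small subunit, which reads the mRNA, to a large subunit, which forms peptide bonds. Each subunit is ribosomal RNA clothed with proteins, most of which are needed in equal numbers. The stalk, a base of Rplp0 carrying Rplp1 and Rplp2, recruits the GTPases of translation. Most ribosomal protein mRNAs begin with a C followed by a run of pyrimidines, the terminal oligopyrimidine (TOP) motif, through which mTOR signalling controls their translation. Several members have a second copy elsewhere in the genome. In the mouse, Rpl10l and Rpl39l are autosomal copies of the X-linked genes Rpl10 and Rpl39 that are used in the male germ line.

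Start regions of 9 members show these features beside one another, with 40 bases before the RefSeq start and 30 bases from it on (RefSeq, GRCm38.p6, 5′ to 3′). Capitals mark the longest run of C and T within 5 bases of the start where that run has at least 4 bases. Rps18, Rpl18 and Rps6, the last of them the main ribosomal substrate of the S6 kinases, carry long runs. Rpl38, which mouse Hox mRNAs need for full translation, also does. Rps28, Rpl10l, Rpl39 and Rpl39l are shown because their levels, described further on, stand apart from those of other members. Rpl10, printed beside them, is the X-linked counterpart of Rpl10l.
Rps18 (chr17:33955636-33955705, minus strand): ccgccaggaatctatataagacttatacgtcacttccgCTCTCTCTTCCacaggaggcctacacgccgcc
Rpl18 (chr7:45718031-45718100, plus strand): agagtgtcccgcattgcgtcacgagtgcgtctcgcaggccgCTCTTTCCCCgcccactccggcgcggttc
Rps6 (chr4:86857338-86857407, minus strand): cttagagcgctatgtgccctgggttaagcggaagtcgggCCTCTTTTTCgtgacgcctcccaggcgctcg
Rpl38 (chr11:114668540-114668609, plus strand): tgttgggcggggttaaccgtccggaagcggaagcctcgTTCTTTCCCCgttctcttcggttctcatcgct
Rps28 (chr17:33824533-33824602, minus strand): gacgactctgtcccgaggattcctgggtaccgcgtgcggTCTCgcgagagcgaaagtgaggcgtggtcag
Rpl10 (chrX:74270776-74270845, plus strand): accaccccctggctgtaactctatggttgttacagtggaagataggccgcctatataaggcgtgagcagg
Rpl10l (chr12:66284372-66284441, minus strand): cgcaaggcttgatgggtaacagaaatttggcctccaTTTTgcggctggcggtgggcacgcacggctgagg
Rpl39 (chrX:37085193-37085262, minus strand): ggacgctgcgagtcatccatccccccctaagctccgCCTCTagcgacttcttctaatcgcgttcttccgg
Rpl39l (chr16:10170188-10170257, plus strand): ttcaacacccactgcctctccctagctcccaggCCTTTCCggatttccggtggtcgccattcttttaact

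RefSeq start regions were found for 65 of the 86 members, among them 57 subunit genes. A run of at least 8 pyrimidines within 5 bases of the start was present in 22 of these 57 subunit genes (38.6%), against 11.4% of 27025 genes with a start region and 7 of 69 mitochondrial ribosomal protein genes (10.1%). The letters CCGGAAG, bound by ETS factors such as GABP, occurred on either strand within 250 bases before to 50 after the start in 24 of 57 subunit genes (42.1%), 26 of 69 mitochondrial ribosomal protein genes (37.7%) and 9.93% of all genes. Subunit genes therefore shared the ETS letters with mitochondrial ribosomal protein genes at a like share, and the pyrimidine run at a higher one. The YY1 letters AAGATGG were in 15.8% of subunit genes, 18.8% of mitochondrial ribosomal protein genes and 7.28% of all genes. The letters TATAAA were in 10.5% of subunit genes, 7.25% of mitochondrial ribosomal protein genes and 15.7% of all genes, both searched on either strand. The ETS letters end in AAG and the YY1 letters begin with it, so a single stretch can match both. Overlap of the matches was not examined. These matches are descriptions of letters and not of binding.

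Estimated depth ran from 9.05 to 16.4 M reads in the RA libraries and from 27.8 to 40.6 M reads in the 4 single libraries of the LIF table. Haunt, listed as Gm15055 (mm9, chr6:52052948-52062531), had 3.08 and 0.447 FPKM in KO day 4, 31.8 and 40.6 in WT day 4, 1.13 and 0 in KO day 2 and 128 and 142 in WT day 2, so it matched the labels. FPKM are fragments per kilobase of transcript, scaled to the mapped total. The first principal component of the RA libraries, 61.3% of their variance, separated the days, and the second, 14.1%, set KO-i apart. Summed FPKM of 8 pluripotency markers were 110 and 181 in KO day 4, 157 and 153 in WT day 4, 761 and 1393 in KO day 2 and 1362 and 1624 in WT day 2. The sums of 10 markers of extraembryonic endoderm came to 843 and 862 in KO day 4 and 1512 and 1494 in WT day 4, against 181 to 233 at day 2. In the LIF table the pluripotency sum was 2636 at day 0 and 2.94 in NSC. The sum of 7 mesendoderm markers was 464 FPKM in ME, 395 at day 4 and 5.01 at day 0. Of these, T was at 192 in ME and 204 at day 4, while Foxa2 (1.32) and Sox17 (0.725) were low in ME. The pluripotency marker Pou5f1 was still at 486 in ME. NPC had Sox1 (21.8) and Pax6 (55.9) but little Olig2 (0.227). NSC had Nes (522) and Fabp7 (1227) but little Sox1 (0.91).

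Ribosomal protein mRNAs were a large share of all FPKM in RA-treated cells, and a smaller one at day 4. Members took 17.04% and 18.14% of summed FPKM in KO day 4 (KO-i first), 18.77% and 19.21% in WT day 4, 21.37% and 20.54% in KO day 2 and 20.85% and 20.56% in WT day 2. Every day 4 library lay below every day 2 library, and both KO libraries lay below both WT libraries at day 4. At day 2 the genotypes overlapped. In bulk samples fewer cells of a type and less RNA per cell cannot be told apart, and FPKM are shares, so none of these values is an amount per cell.

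**Figure D1:**
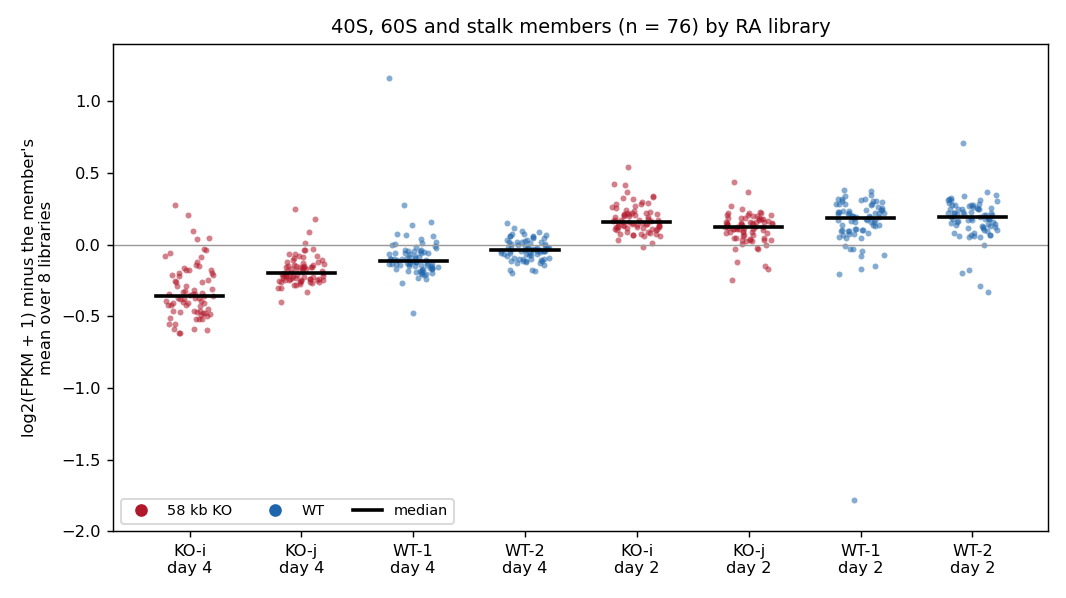
Levels of the 76 tested subunit members in each RA library, as log2(FPKM + 1) of each gene minus its own mean over the 8 libraries; points are genes and the bar is the median. The medians lie at -0.36 and -0.20 in KO day 4, -0.11 and -0.04 in WT day 4, 0.16 and 0.12 in KO day 2 and 0.19 and 0.19 in WT day 2.

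Most subunit proteins are needed in equal numbers, but the FPKM of their genes were unequal. Over the 8 RA libraries the 77 subunit members had a median mean level of 1156 FPKM, and 46 of them were at 1000 FPKM or more. Rps28 (4357 FPKM), Rps26 (3412) and Rpl41 (3335), the last encoding the shortest ribosomal protein, were highest. Rps27 (0.339), Rpl34 (14.0) and Rps15a (52.0) were lowest. Rpl34 shares at least 80% of its span with an entry named Rpl34-ps1, which held 1301 and 1286 FPKM in KO day 4, 1403 and 1499 in WT day 4, 2038 and 1751 in KO day 2 and 1819 and 1757 in WT day 2. Reads of such overlapping entries, and of near-identical copies, cannot be told apart here, so the level of Rpl34 and of other members with such copies is uncertain. Rps27 was under 1 FPKM in every RA library and was not tested, which leaves 85 members.

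In KO cells many ribosomal protein genes of both subunits and of the stalk fell between RA day 2 and day 4. By limma on log2(FPKM + 1), adjusted over 15705 genes at 0.05, 45 of the 85 members fell (52.9%) and 0 rose, against 7.81% of all genes called lower and 10.0% called higher. At an unadjusted p of 0.05, 65 members passed (76.5%), against 34.2% of all genes. The fallen members were 16 of 30 small-subunit genes, 26 of 43 large-subunit genes, 2 of 3 stalk genes and 1 of 8 second copies. Their size was modest: the median log2 difference over the 85 members was -0.41, against 0.04 over all genes tested, and 83 of 85 were negative, against 46.4% of genes in the same comparison. For 76 members (89.4%) both KO day 4 libraries lay below both KO day 2 libraries, and for 0 members both lay above. Of all genes, 59.8% did not overlap between the KO days in either direction, with 4242 of 15705 below and 5155 above. The pluripotency markers, with sums of 110 and 181 FPKM in KO day 4 and 761 and 1393 in KO day 2, moved with the day, and their part in the change was not tested.

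Named members show the size of the change. Rps18 (mm9, chr17:34088944-34092586), a protein of the small-subunit head, had 1330 and 1372 FPKM in KO day 4 and 2055 and 1962 in KO day 2. The days did not overlap, and the log2 difference was -0.57 (SE 0.0914, adjusted p = 0.0091). Rpl6, of the large subunit, had 623 and 712 FPKM in KO day 4 and 1002 and 989 in KO day 2, a log2 difference of -0.58 (SE 0.0946, adjusted p = 0.0098). Rpl27, also of the large subunit, had 496 and 545 FPKM in KO day 4 and 750 and 749 in KO day 2 (log2 difference -0.53, adjusted p = 0.00998). Rpl23, which can bind the p53 regulator Mdm2, had 452 and 495 FPKM in KO day 4 and 684 and 676 in KO day 2 (log2 difference -0.52, adjusted p = 0.0112). In each of these 4 genes the day 4 libraries were the low ones, with KO-i the lower of the pair. The stalk base Rplp0 had 1024 and 1223 FPKM in KO day 4 and 1635 and 1585 in KO day 2 (log2 difference -0.52, adjusted p = 0.0205). Rplp1 also fell (-0.48, adjusted p = 0.0297), while Rplp2 was at -0.35 with an adjusted p of 0.0556. Rpl5 and Rpl11 form with the smallest ribosomal RNA a particle that binds Mdm2. Rpl5 fell (-0.49, adjusted p = 0.0312), with 241 and 279 FPKM in KO day 4 and 375 and 356 in KO day 2. Rpl11 had 1130 and 1334 FPKM in KO day 4 and 1528 and 1484 in KO day 2, and its difference of -0.29 did not pass (adjusted p = 0.141).

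WT cells gave fewer calls, in the same direction. Between WT day 4 and WT day 2, 19 of 85 members fell (22.4%) and 0 rose, against 10.9% of all genes called lower and 14.4% called higher. At an unadjusted p of 0.05, 45 passed (52.9%), against 38.8% of all genes. The median over the members was -0.25, against 0.04 over all genes, and 78 of 85 were negative, against 46.4% of all genes. Among the fallen were 4 of 30 small-subunit genes, 11 of 43 large-subunit genes, 1 of 3 stalk genes and 3 of 8 second copies. Both WT day 4 libraries lay below both WT day 2 libraries in 71 members (83.5%), against 31.2% of all genes, and above them in 2 members, Rps19 and Rps28 (background 37.6%). By their limma calls, 16 of 85 members fell in both genotypes (18.8%), against 5.85% of all genes. In WT cells, too, markers moved with the day: the pluripotency sums were 157 and 153 FPKM in WT day 4 and 1362 and 1624 in WT day 2, and the endoderm sums 1512 and 1494 in WT day 4 and 197 and 233 in WT day 2. Their part in the difference was not tested.

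Rpl27 had 582 and 567 FPKM in WT day 4 and 768 and 754 in WT day 2, a log2 difference of -0.40 (SE 0.0866, adjusted p = 0.0144). Rps2, a small-subunit protein of the mRNA entry site, had 1688 and 1790 FPKM in WT day 4 and 2378 and 2315 in WT day 2 (-0.43, SE 0.0935, adjusted p = 0.015). Rpl18, whose start region is printed with its pyrimidine run, had 1097 and 1204 FPKM in WT day 4 and 1639 and 1560 in WT day 2 (-0.48, SE 0.114, adjusted p = 0.0214). In all 3 the WT day 4 libraries were the low ones and the days did not overlap. Rps18 (-0.39, adjusted p = 0.0196) and Rpl6 (-0.38, adjusted p = 0.0242) fell as well. Rplp1 fell by 0.39 on the log2 scale (adjusted p = 0.0421), while Rplp0 was at -0.35 with an adjusted p of 0.0544. These counts depend on single libraries and on the filter for low values. Without WT-1 or WT-2 at day 4 the WT count was 1, without WT-1 or WT-2 at day 2 it was 2 and 3 (of the 3, 2 were higher), without either KO day 2 library it was 10 and without either KO day 4 library it was 32. The KO count was 9 without KO-i at day 4, 7 without KO-i at day 2, 6 without KO-j at day 2 and 1 without KO-i at both days. With no filter on low values the counts were 6 in KO cells and 2 in WT cells. The median, by contrast, ranged from -0.50 to -0.33 in KO cells and from -0.30 to -0.21 in WT cells when libraries were left out.

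**Figure D2:**
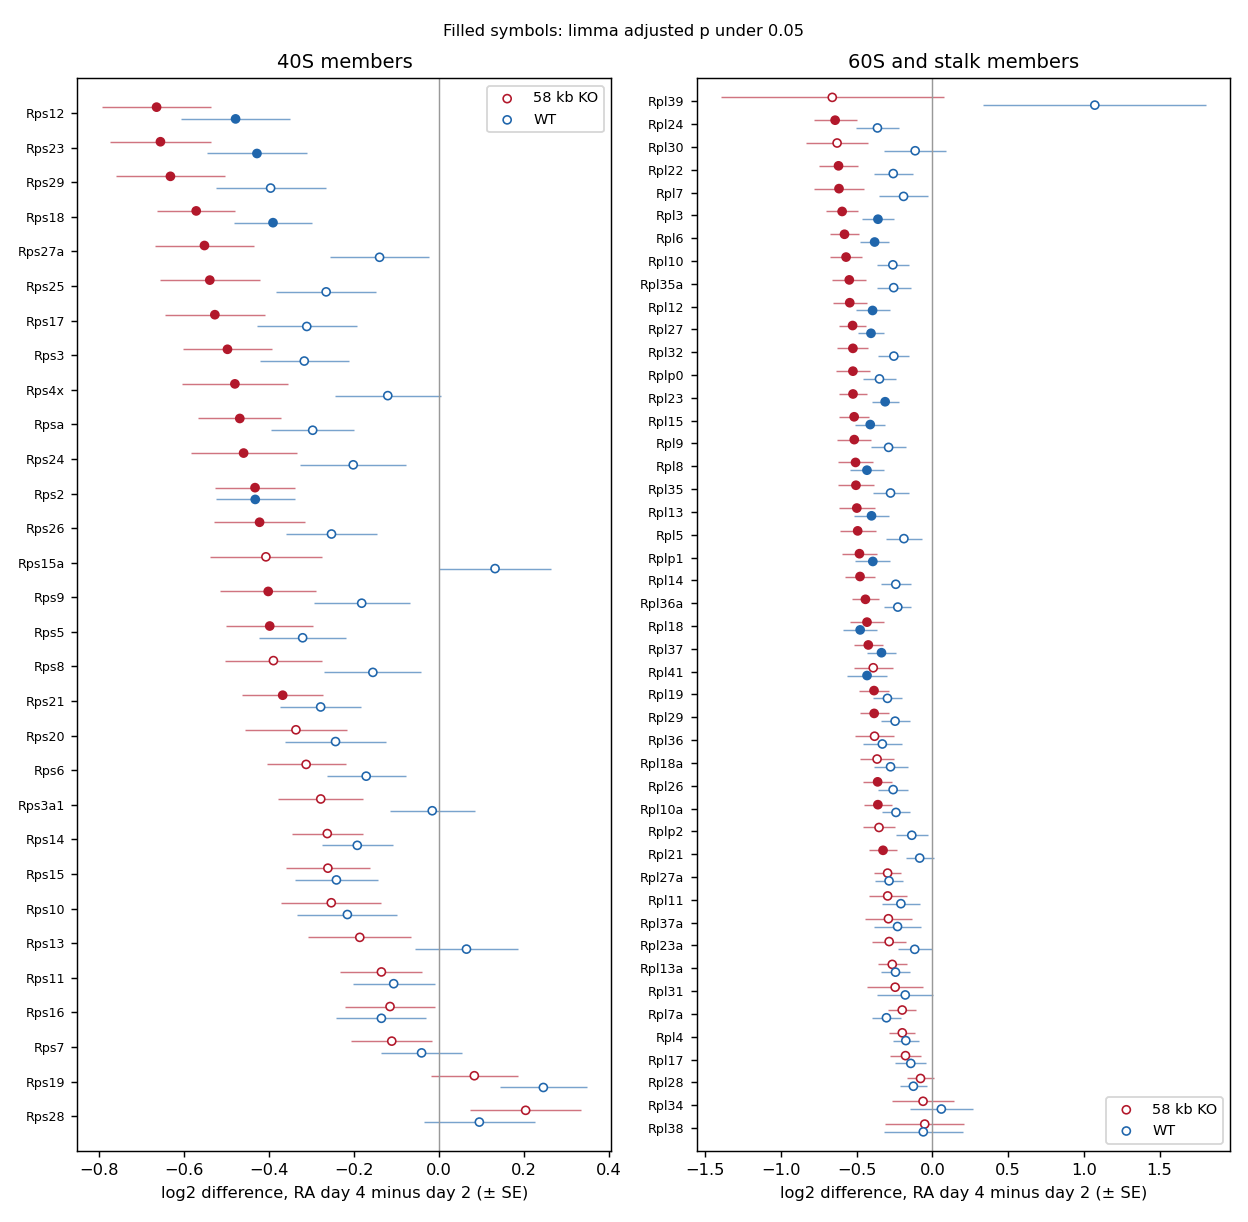
Difference in log2(FPKM + 1), RA day 4 minus day 2, for each tested subunit member in KO cells (upper, red) and WT cells (lower, blue), with SE bars and filled points for members past the limma threshold. Most points lie below 0, with 74 of 76 there in KO cells and 70 of 76 in WT cells, and Rpl39 has the widest bars.

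Few members departed from this. Rpl38 had 247 and 331 FPKM in KO day 4, 283 and 243 in WT day 4, 373 and 235 in KO day 2 and 326 and 229 in WT day 2. Its days overlapped in each genotype, and its day differences were -0.05 in KO cells and -0.06 in WT cells. Rps28, a small-subunit protein at the mRNA exit, had 5260 and 4604 FPKM in KO day 4, 4212 and 4258 in WT day 4, 4732 and 3855 in KO day 2 and 4105 and 3828 in WT day 2. Its KO day difference of 0.20 did not pass (adjusted p = 0.315). Rps19, the small-subunit protein most often mutated in human Diamond-Blackfan anaemia, had 978 and 924 FPKM in KO day 4, 961 and 1020 in WT day 4, 956 and 842 in KO day 2 and 871 and 800 in WT day 2. It lay higher in both WT day 4 libraries, but its difference of 0.25 did not pass (adjusted p = 0.121). Rpl39 varied widely within groups, with 135 and 184 FPKM in KO day 4, 446 and 186 in WT day 4, 243 and 256 in KO day 2 and 56.9 and 326 in WT day 2. Its WT libraries differed widely within each day, and its coefficient of variation over the 8 libraries was 52.1%, against a median of 15.3% over subunit members.

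The day differences of members with and without the pyrimidine run were close. In KO cells the median day difference was -0.38 over 21 tested subunit members with the run and -0.47 over 35 without it. In WT cells it was -0.24 with the run and -0.26 without. Across the 76 tested subunit members the day difference in KO cells and that in WT cells, which share no library, had Pearson's r of 0.34 and Spearman's rho of 0.562. Without Rpl39 they were 0.686 and 0.624 over 75 members. Genes are not independent replicates, and the members share libraries and depth, so these are descriptions.

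The KO was set against WT at each day to ask whether cells with the Haunt deletion differ in ribosomal protein mRNA. At day 4 the members lay lower in KO cells as a group, but no single member passed. By limma 0 of 85 members were called, against 0% of all genes, and the median difference was -0.20, against 0.02 over all genes. At an unadjusted p of 0.05, 24 members passed (28.2%), against 14.4% of all genes, and 77 of 85 differences were negative, against 46.6% of all genes. In 52 members (61.2%) both KO day 4 libraries lay below both WT day 4 libraries, against 21.7% of all genes. In 2, Rpl34 and Rps28, both lay above (24.9%). The place of Rpl34 is uncertain, because its reads cannot be told apart from those of Rpl34-ps1, the entry that shares its span. Rpl34-ps1 lay the other way, with 1301 and 1286 FPKM in KO day 4 and 1403 and 1499 in WT day 4. The size of the median turned on KO-i: it was -0.12 without KO-i at day 4 and -0.27 without KO-j. The endoderm markers, at 843 and 862 FPKM in KO day 4 against 1512 and 1494 in WT day 4, moved with this difference, and their part in it was not tested.

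Rpl10, a large-subunit protein that joins late in assembly (mm9, chrX:71516155-71518474), had the smallest p among the members, with 829 and 988 FPKM in KO day 4 and 1219 and 1232 in WT day 4. Both KO libraries were the low ones, yet the log2 difference of -0.44 (SE 0.106) had an adjusted p of 0.191. Rps4x, a small-subunit protein also encoded on the X chromosome (mm9, chrX:99380282-99383710), had 663 and 801 FPKM in KO day 4 and 1002 and 1010 in WT day 4 (-0.46, SE 0.125, adjusted p = 0.206). Rpl5 had 241 and 279 FPKM in KO day 4 and 342 and 357 in WT day 4 (-0.43, adjusted p = 0.212). None of these 3 overlapped between genotypes, and none passed. Rpl22, which has the like-named copy Rpl22l1, had 101 and 128 FPKM in KO day 4 and 144 and 159 in WT day 4 (-0.41, adjusted p = 0.254). Rps25, which some viral internal ribosome entry sites need, had 628 and 758 FPKM in KO day 4 and 866 and 915 in WT day 4 (-0.37, adjusted p = 0.255).

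**Figure D3:**
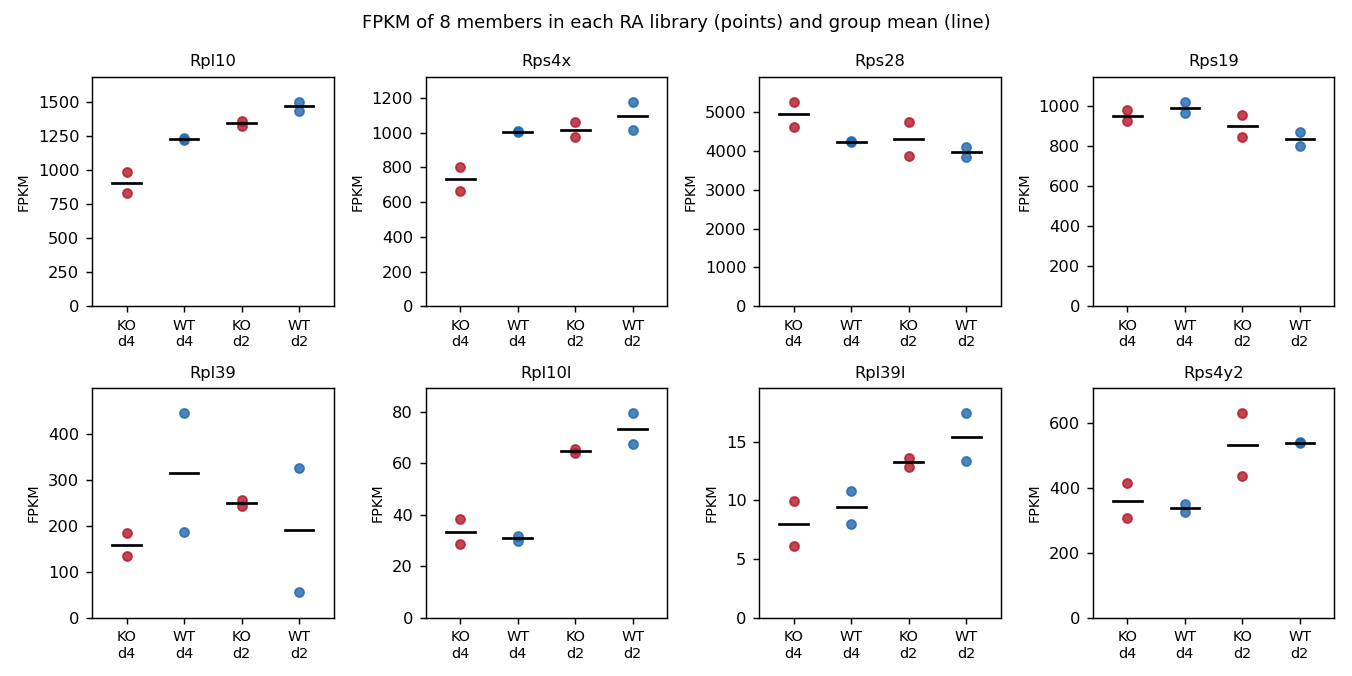
FPKM of 8 members in each RA library, with KO day 4, WT day 4, KO day 2 and WT day 2 from left to right; points are libraries, lines are group means and each panel has its own axis from 0. Rpl10 and Rps4x lie lower in both KO day 4 libraries (829 and 988, and 663 and 801 FPKM) than in any other library, and Rpl10l lies lower in all day 4 libraries (28.5 to 38.3 FPKM) than in all day 2 libraries.

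At day 2 the genotypes were closer. By limma 0 of 85 members were called, against 0.0255% of all genes, and the median was -0.04, against 0.04 over all genes. One member passed an unadjusted p of 0.05 (1.18%), against 5.11% of all genes. Both KO day 2 libraries lay below both WT day 2 libraries in 33 members (38.8%), against 13.9% of all genes, and above them in 3, Rpl32, Rpl34 and Rps15a (23.1%). Rpl32, of the large subunit, had 2533 and 2434 FPKM in KO day 2 and 2166 and 2112 in WT day 2, a difference of 0.22 that did not pass. Rpl13, of the large subunit, had 1259 and 1283 FPKM in KO day 2 and 1477 and 1449 in WT day 2, a difference of -0.20 that did not pass either. Rpl34 had 14.4 and 19.0 FPKM in KO day 2 and 12.1 and 10.7 in WT day 2 (0.50, adjusted p = 0.88), which is a small remainder beside the entry that shares its span. The difference of the KO effect between the days was called for 0 of 85 members by limma (0% of all genes), with 2 at an unadjusted p of 0.05 against 5.56% of all genes. Its median was -0.14, against -0.01 over all genes, and was -0.07 without KO-i at day 4 and -0.05 without KO-i at both days.

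Both KO libraries stood apart from WT on single chromosomes. In KO-i, 430 chromosome 1 genes that are not members had a median log2 difference from the WT mean of 0.29 at day 4 and 0.30 at day 2, and the 3 chromosome 1 members, Rpl7, Rpl31 and Rpl37a, had medians of 0.15 and 0.35. In KO-j the same members were at -0.15 and -0.12. In KO-j it was chromosome 6 that stood apart, with 344 genes that are not members at 0.17 at day 4 and 0.20 at day 2, and its members Rpl32 and Rps4y2 at medians of 0.17 and 0.21. In KO-i these chromosome 6 genes were at 0.07 on each day. Their bearing on the higher Rpl32 of KO day 2 was not tested. The 4 X-linked members, Rpl10, Rps4x, Rpl36a and Rpl39, had day 4 medians of -0.58 in KO-i and -0.32 in KO-j, while 229 other X-linked genes were at -0.10 in each. At day 2 the X-linked members were at -0.04 and -0.03. Without members on chromosomes 1 and X the KO against WT median at day 4 was -0.19, close to the value with them.

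Most of the 8 second copies were lower at day 4, though few passed. In KO cells 8 of 8 day differences were negative (median -0.41). In WT cells 7 of 8 were (median -0.52), against 46.4% of all genes in each genotype. Rpl10l (mm9, chr12:67384366-67385388) fell in both genotypes, with 28.5 and 38.3 FPKM in KO day 4, 31.8 and 29.9 in WT day 4, 65.3 and 64.0 in KO day 2 and 79.5 and 67.4 in WT day 2. Every day 4 library lay well below every day 2 library. The log2 difference was -0.95 in KO cells (SE 0.150, adjusted p = 0.00885) and -1.22 in WT cells (SE 0.150, adjusted p = 0.00198). Its X-linked counterpart Rpl10 fell in KO cells (-0.57, adjusted p = 0.0144) and was at -0.26 in WT cells (adjusted p = 0.114). Rps4y2 is named like a copy of Rps4x, but its RefSeq record is of the non-coding type. It had 306 and 414 FPKM in KO day 4, 325 and 349 in WT day 4, 436 and 630 in KO day 2 and 537 and 540 in WT day 2. It fell in WT cells (-0.68, SE 0.194, adjusted p = 0.0401) and was at -0.56 in KO cells (adjusted p = 0.0878). Rpl36al, an autosomal copy of the X-linked Rpl36a, had 290 and 316 FPKM in KO day 4, 337 and 330 in WT day 4, 368 and 414 in KO day 2 and 422 and 492 in WT day 2. It fell in WT cells (-0.45, adjusted p = 0.0227) and was at -0.36 in KO cells (adjusted p = 0.0593).

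Other copies passed in neither genotype. Rpl39l had 6.10 and 9.91 FPKM in KO day 4, 10.8 and 8.00 in WT day 4, 12.9 and 13.7 in KO day 2 and 13.4 and 17.5 in WT day 2. Its day 4 libraries were all lower than its day 2 libraries, but the differences of -0.70 in KO cells (adjusted p = 0.0821) and -0.66 in WT cells (adjusted p = 0.0802) did not pass. Rpl22l1 had 29.6 and 35.8 FPKM in KO day 4, 50.8 and 32.5 in WT day 4, 33.0 and 34.5 in KO day 2 and 17.5 and 43.8 in WT day 2, with overlapping days. Rps27l, a copy of Rps27 that p53 induces, had 238 and 288 FPKM in KO day 4, 310 and 277 in WT day 4, 369 and 351 in KO day 2 and 256 and 367 in WT day 2. Rpl3l, a copy used in striated muscle, stayed between 0.28 and 1.37 FPKM. Rpl7l1 had 40.8 and 48.5 FPKM in KO day 4, 44.3 and 48.8 in WT day 4, 50.3 and 56.2 in KO day 2 and 53.8 and 60.02 in WT day 2. Its days did not overlap in either genotype, and the differences of -0.25 in KO cells (adjusted p = 0.191) and -0.28 in WT cells (adjusted p = 0.132) did not pass. In the LIF table Rpl7l1 ranged from 72.7 FPKM in NSC to 131 at day 2, and Rpl36al from 797 in NSC to 1436 at day 0.

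Other genes of protein synthesis gave a mixed picture, which can be read against the 7.81% of all genes called lower and 10.0% called higher between the KO days, and the 10.9% lower and 14.4% higher between the WT days. Mitochondrial ribosomal protein genes, which serve a separate ribosome, had 1 gene up and 3 down of 76 in KO cells (median -0.09), among them Mrps10 (-0.57, adjusted p = 0.0224) and Mrpl45 (-0.59, adjusted p = 0.0282). In WT cells 2 were up and 6 down (median -0.13), among them Mrpl38 (-0.49, adjusted p = 0.00686) and Mrps5 (-0.51, adjusted p = 0.0124). Of 14 other translation genes with TOP mRNAs, 6 fell in KO cells (median -0.29), among them the elongation factors Eef1b2 (-0.63, adjusted p = 0.0149) and Eef1a1 (-0.47, adjusted p = 0.0246). In WT cells 2 of the 14 fell (median -0.10), Tpt1 (-1.05, adjusted p = 0.0212) and the elongation factor Eef1d (-0.35, adjusted p = 0.0309). Tpt1 lay near the filter of 1 FPKM, with 1.59 and 1.65 FPKM in WT day 4 and 4.97 and 3.92 in WT day 2. Gnb2l1, a small-subunit protein under another name, fell in KO cells (-0.34, adjusted p = 0.0407) and was at -0.20 in WT cells (adjusted p = 0.147), while Fau was at -0.14 in KO cells and -0.11 in WT cells and did not pass.

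Some genes that build the ribosome fell as well. Of 28 ribosome biogenesis genes 5 fell in KO cells (median -0.26) and 8 in WT cells (median -0.33). Dkc1, the pseudouridine synthase of ribosomal RNA, had 44.0 and 37.3 FPKM in KO day 4, 36.9 and 38.6 in WT day 4, 93.1 and 86.1 in KO day 2 and 85.7 and 99.6 in WT day 2. It fell by 1.13 in KO cells (adjusted p = 0.00288) and by 1.27 in WT cells (adjusted p = 0.000864). Its partner Nop10 fell in KO cells (-0.88, adjusted p = 0.0078), and Nop56, of the particles that methylate ribosomal RNA, in WT cells (-0.56, adjusted p = 0.00448). Of 14 RNA polymerase I genes 2 fell in KO cells and 4 in WT cells. The subunit Znrd1 fell in each (-0.95, adjusted p = 0.0062, in KO cells and -0.84, adjusted p = 0.00458, in WT cells), Polr1d in KO cells (-0.39, adjusted p = 0.0294) and Polr1b in WT cells (-0.49, adjusted p = 0.0197). Of 20 growth control genes 0 fell and 2 rose in each genotype. Of all genes, 10.0% were called higher in KO cells and 14.4% in WT cells, so that count does not exceed the background. The 2 genes were Myc and Mycn, transcription factors known to drive ribosomal genes. Myc had 14.3 and 22.2 FPKM in KO day 4, 15.3 and 15.0 in WT day 4, 5.21 and 7.40 in KO day 2 and 8.28 and 8.64 in WT day 2. It rose by 1.38 in KO cells (adjusted p = 0.00897) and by 0.77 in WT cells (adjusted p = 0.0385). Mycn rose by 0.93 in KO cells (adjusted p = 0.0156) and by 1.64 in WT cells (adjusted p = 0.00136).

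Between KO and WT limma called 0 genes of these lists at either day. At day 4 the medians were -0.29 in the TOP translation list, -0.05 in biogenesis, 0.10 in polymerase I and 0.04 in growth control. The genes with the smallest p at day 4 were Hnrnpa1 (-0.46) and Naca (-0.34) of the TOP list, the rRNA methyltransferase Fbl (-0.27) and Nop10 (-0.41), Polr1c (0.39) and Taf1a (0.32) of polymerase I, Tsc2 (0.41) and Mtor (0.52) of the mTOR pathway, Gnb2l1 (-0.17) and Fau (-0.15), and Mrpl24 (0.36) and Mrps10 (-0.39). Their adjusted p ran from 0.195 to 0.533. At day 2 they were Eef1d (-0.15), Tpt1 (-0.35), Fbl (-0.28), Nop10 (-0.30), Taf1a (0.42), Taf1b (0.27), Eif4ebp1 (-0.37), Mtor (0.38), Fau (-0.13), Mrpl2 (-0.25) and Mrps21 (0.28), each with an adjusted p of 0.88.

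Without RA, ribosomal protein genes were also lower after LIF withdrawal and in the lineages, in a table with no replicates and so no test. Each lineage was sorted and came from another line than day 0, so lineage, line and sorting cannot be told apart. Members took 14.51% of summed FPKM at day 0, 12.99% at day 2, 12.17% at day 4, 11.85% at day 6, 11.65% in ME, 12.69% in NPC and 12.15% in NSC. Day 0 was the highest of the 7 columns. Of the 86 members 84 averaged at least 1 FPKM, and Rpl29 and Rpl3l did not. The median log2 difference from day 0 over these 84 was -0.19 at day 2, -0.38 at day 4, -0.42 at day 6, -0.47 in ME, -0.32 in NPC and -0.48 in NSC, against 0.04, -0.01, 0.11, 0.00, 0.07 and 0.09 over all genes in that order. Lower than day 0 were 66, 71, 83, 76, 63 and 75 of the 84 members in the same order, against 45.3%, 51.3%, 42.9%, 50.3%, 46% and 46.5% of all genes. Lower in all 6 columns were 45 members (53.6%), against 16.5% of all genes, and all 6 differences share the day 0 value.

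**Figure D4:**
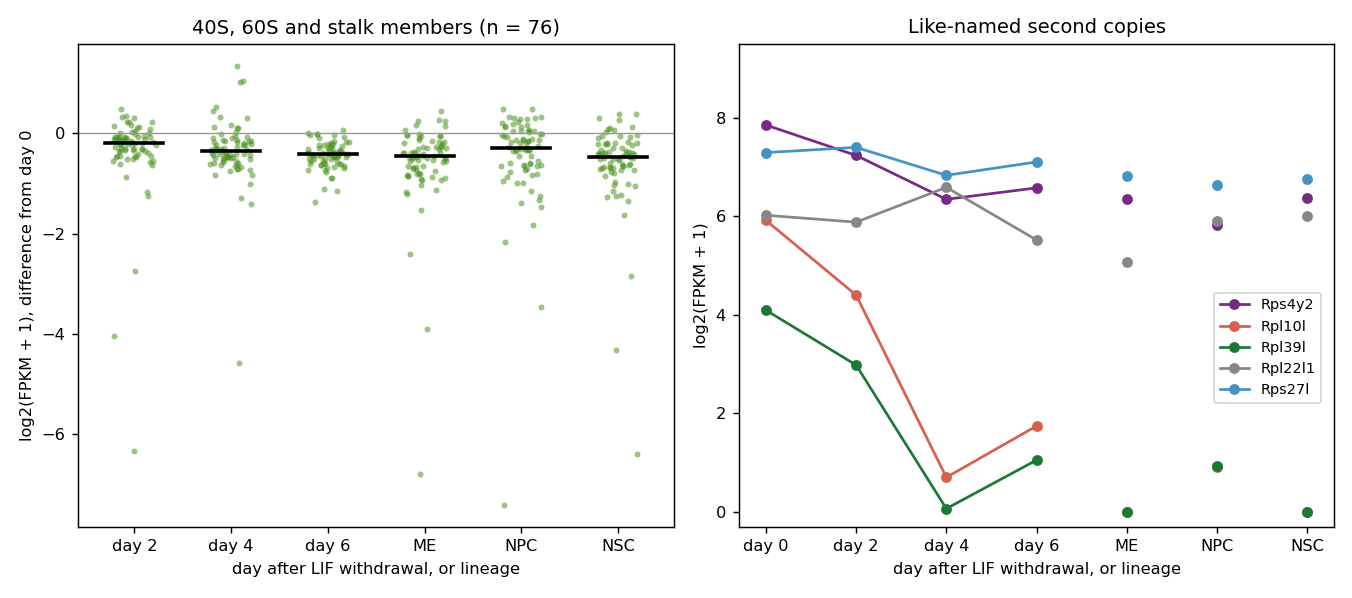
Left, difference from day 0 in log2(FPKM + 1) of 76 subunit members, with points for genes and a bar for the median; right, log2(FPKM + 1) of 5 second copies in each column. Medians of subunit members lie between -0.19 and -0.47 while single members reach -7.42 (Rpl34 in NPC), and Rpl10l and Rpl39l are highest at day 0.

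Most members differed from day 0 by less than 1 log2 unit. Those at least 1 log2 unit lower than day 0 were 7 at day 2 (8.33%, background 4.49%), 7 at day 4 (8.33%, background 7.83%) and 6 at day 6 (7.14%, background 6.22%). In the lineages they were 11 in ME (13.1%, background 9.76%), 13 in NPC (15.5%, background 11.3%) and 15 in NSC (17.9%, background 16.3%). These shares lay within a few percentage points of the background, so they are no result about the members. At least 1 log2 unit higher were 3 members at day 4, Rpl30, Rpl5 and Rps3a1 (background 7.17%), and 0 at day 2 (5.01%), at day 6 (12.6%), in ME (9.83%), in NPC (15.0%) and in NSC (20.9%). Rpl30 shares its span with the entry Gm12191, which had 127 FPKM at day 0 and 238 at day 4, so its level is uncertain.

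Rpl10l had the lowest log2 difference of the 84 members at day 4 (-5.22) and day 6 (-4.17). Its FPKM were 59.6 at day 0, 20.2 at day 2, 0.629 at day 4, 2.36 at day 6 and 0.893 in NPC, and it was listed at 0 in ME and NSC. Rpl39l had 16.1 FPKM at day 0, 6.91 at day 2, 0.0484 at day 4, 1.08 at day 6, 0.918 in NPC, and was listed at 0 in ME and NSC. Rps4y2 had 231 FPKM at day 0, 150 at day 2, 80.4 at day 4, 94.6 at day 6, 80.6 in ME, 55.9 in NPC and 81.7 in NSC. All 3 of these copies were highest at day 0. Rpl22l1 showed no such order, with 64.1, 58.0, 95.4 and 44.9 FPKM at days 0, 2, 4 and 6, and 32.6 in ME, 59.3 in NPC and 63.4 in NSC. Rps27l had 156, 168, 113 and 137 FPKM over the same days, and 113 in ME, 99.1 in NPC and 107 in NSC. A value listed at 0 may be a failed estimate, and this holds for Rpl10l, Rpl39l, Rpl3l (ME, NPC and NSC) and Rpl29 (day 4).

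Other large steps came and went between columns. Rpl34 had 1515 FPKM at day 0, 17.7 at day 2, 2051 at day 4, 696 at day 6, 12.7 in ME, 7.88 in NPC and 16.9 in NSC. Its overlapping entry Rpl34-ps1 had 1072, 878 and 434 FPKM in the columns of days 0, 4 and 6, and under 1 FPKM elsewhere. Rpl3, a core protein near the peptidyl transferase centre, had 383, 22.2, 15.1 and 148 FPKM at days 0, 2, 4 and 6, and 24.6 in ME, 33.8 in NPC and 18.1 in NSC. Rps3a1 had 363, 53.1, 748 and 195 FPKM at days 0, 2, 4 and 6, and 67.3 in ME, 79.9 in NPC and 49.6 in NSC. The 3 members were low at day 2 and in every lineage, while at day 4 Rpl34 and Rps3a1 were above day 0 and Rpl3 was low. Leaving them out moved no median by more than 0.1.

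Biogenesis genes had lower medians than the ribosomal protein members at day 6, in NPC and in NSC. Their median difference from day 0 was -0.57 at day 6, -0.74 in NPC and -1.21 in NSC, against 0.11, 0.07 and 0.09 over all genes. In NSC 18 of 28 (64.3%) were at least 1 log2 unit lower, against 16.3% of all genes. The biogenesis gene Nolc1 was listed at 0 at day 2, in ME and in NPC, which may be a failed estimate. The medians of 76 mitochondrial ribosomal protein genes were -0.04 at day 2, -0.17 at day 4, -0.22 at day 6, -0.43 in ME, -0.43 in NPC and -0.28 in NSC. In NPC that is lower than the -0.32 of the cytosolic members, in ME it is close to their -0.47, and at the 3 days and in NSC it is nearer to 0. Mycn had 106 FPKM at day 0, 70.8 at day 2, 32.3 at day 4, 40.9 at day 6, 30.6 in ME, 52.1 in NPC and 1.27 in NSC, so its highest level was at day 0.

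Levels of the same gene differed widely between the tables, which were normalized separately and come from libraries of different kinds. Over the 77 subunit members Spearman's rho of mean levels was 0.359, a description across genes. The LIF table had a median of 443 FPKM, with 22 members at 1000 or more and 17 under 100, against 46 and 3 in the RA table. Rplp2 (3968 FPKM), Rpl41 (3077) and Rps26 (2853) were highest in the LIF table, and Rpl29 (0.320), Rpl5 (12.5) and Rpl17 (20.2) lowest. In 16 members the RA level was over 10 times the LIF level, by 2200 times in Rpl29, 128 in Rpl28, 104 in Rps12 and 72 in Rpl17. The reverse held for Rps27 and Rpl34. The RA and LIF columns were not compared gene by gene beyond these levels.

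**Figure D5:**
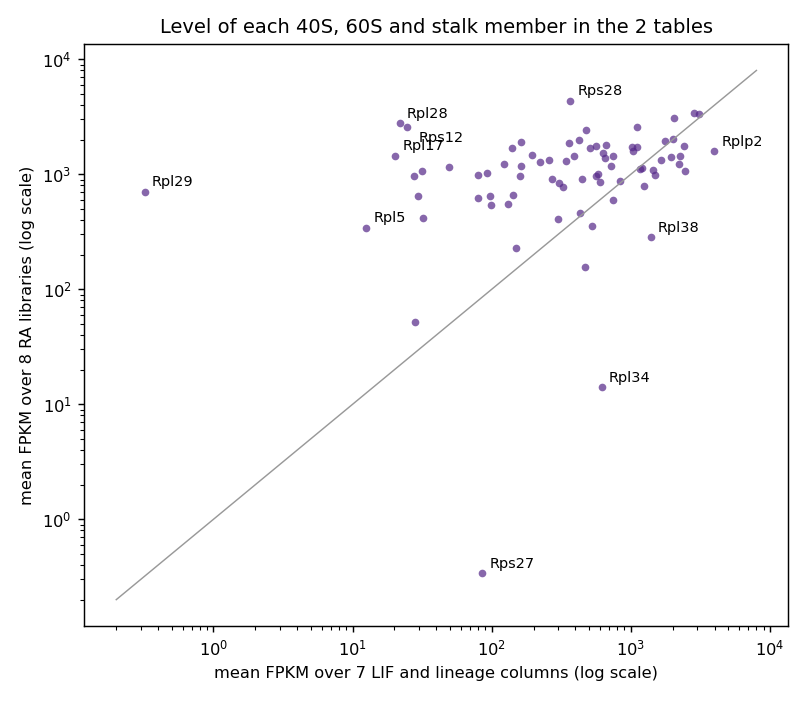
Mean FPKM of each subunit member in the RA table and in the LIF and lineage table, on log axes. The points scatter widely (Spearman's rho 0.359), and most lie on the RA side of the line of equal values. The medians are 1156 FPKM in the RA table and 443 in the LIF table. Rpl29 lies farthest on the RA side, and Rps27 and Rpl34 lie far on the LIF side.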

How the data were processed

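Cytosolic ribosomal protein genes were read from 2 gene tables. The authors deposited FPKM values for 8 RA libraries and for 7 columns of the LIF and lineage table, some of them the authors' means; the unit was judged from the values and the column names. TopHat2 2.0.11, Bowtie 1.0.0, CASAVA, MACS 1.4.2 and the mm9 build appear, with no roles, in the submitters' processing notes. Per the labels' protocols the RA libraries do not mark strand and those of the LIF table do, so overlapping entries cannot be told apart in the RA table. In the LIF table Rpl26, Rpl30, Rpl34 and Rps27 also share at least 80% of their span with another entry. Their levels there are uncertain too. The entry at Rpl26, Gm15772, had 7349 FPKM in ME and 13840 at day 4 and is not a member. RA groups were fitted with limma 3.58.1 (R 4.3.3, intensity trend) on log2(FPKM + 1), so differences of low genes are understated. Genes reaching 1 FPKM in 2 or more libraries were kept, with Benjamini-Hochberg adjustment over 15705 genes. LIF columns have no replicates and differences of at least 1 (log2) among 11968 genes averaging 1 FPKM or more were counted. Depth was estimated from the lowest FPKM steps and limits the precision of low members. Genes were named by rule: the 5 smallest p per RA comparison, the second copies, the 3 highest and 3 lowest levels per table, members listed at 0, the 3 largest LIF differences per column, Rpl38, Rpl5, Rpl11, Rplp0, and 2 genes per other list, of which 1 is not reported here. Members named outside it, such as Rps19, Rpl39, Rps3a1 and Rps28 beside the members that do not overlap, were chosen after their values were seen. The members and lists were chosen with earlier results of these data known. Alternatives were scaling, pseudocount, filter, replicate block and leaving out libraries. The limma steps were tested on simulated data.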

Additional observations from a re-analysis of the deposited data

Results flagged for a closer look

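Rps15a, a small-subunit protein, moved one way at day 2 and the other at day 4. It had 46.5 and 43.4 FPKM in KO day 4 and 57.6 and 49.97 in WT day 4, and 64.4 and 55.8 in KO day 2 and 44.5 and 53.6 in WT day 2. Both KO libraries lay below both WT libraries at day 4 and above them at day 2. The difference of the log2 differences, day 4 minus day 2, was -0.54, and the limma test of that difference did not pass (adjusted p = 0.824).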

How the results depend on the processing

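Without a filter on low values, the members called between day 4 and day 2 were 6 in KO cells and 2 in WT cells, against 45 and 19. Leaving out 1 library at a time gave 6 to 46 calls in KO cells and 1 to 32 in WT cells, where the lone library of a group is assumed to vary like the others; without WT-2 at day 2, 2 of the 3 WT calls were higher. The medians then ranged from -0.50 to -0.34 for KO day 4 against day 2, from -0.30 to -0.21 for WT day 4 against day 2, from -0.27 to -0.12 for KO against WT at day 4 and from -0.23 to -0.07 for the difference of the KO effect. Leaving out KO-i at both days, an alternative chosen after seeing the data, gave 1 call in KO cells, which was not among the 45, and medians of -0.33, -0.12 and -0.053 for the KO day difference, KO against WT at day 4 and the difference of the KO effect. Scaling the libraries to a common median of ratios gave 50 calls in KO cells and 27 in WT cells. KO against WT gave 0 called members at each day in every alternative run. With the library name as a replicate block the counts were 48 in KO cells and 21 in WT cells, of which 44 and 18 were among the main calls, and 0 for the difference of the KO effect; over all genes, deviations of same-named libraries correlated at 0.26 in KO cells and 0.085 in WT cells, and over members at 0.453 and -0.81. The labels state no pairing, and with 2 libraries per group the correlations do not settle it, although KO-i on chromosome 1 and KO-j on chromosome 6 kept their shift at both days. Leaving out the members on chromosomes 1 and X, those that share their span with another entry, or Rpl34, Rpl3 and Rps3a1 in the LIF table was likewise chosen after seeing the data. No median and no called single member changed sign in the alternatives run, whereas the direction of the WT calls turned without WT-2 at day 2. Of the single-member values, 386 stayed on the same side of the threshold, which includes values uncalled in both runs. A call was lost in 36 values and gained in 10. Depth limits the members under about 1 FPKM, Rps27 and Rpl3l among them.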
